A study of Mus musculus with 17 samples.

Results

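Chromatin accessibility was followed at the loci of 8 genes that specify or maintain macrophages: Spi1, Runx1, Csf1r, Csf2ra, Maf, Mef2c, Zeb2 and Id3. The genes were chosen by name, and every peak within 20 kb of their gene bodies in the GENCODE vM21 annotation of mm10 (GRCm38) was taken. The 17 deposited ATAC-seq peak lists held 808470 peak intervals, of which 1803 lay in these windows. Merged over the lists, they gave 49 accessible elements among 34195 sites in the genome. Of the 49 elements, 7 lay at Spi1, 11 at Runx1, 6 at Csf1r, 2 at Csf2ra, 2 at Maf, 5 at Mef2c, 10 at Zeb2 and 6 at Id3.

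The cells were bone marrow-derived macrophages (BMDMs) of male C57Bl6/J mice aged 6 to 12 weeks, grown for 7 days with L929-conditioned medium, a source of the growth factor M-CSF. WT littermates were compared with whole-body Nur77-KO mice, in which a loxP-flanked Nr4a1 gene had been deleted with a CMV-driven Cre that was later bred out, although the sample labels still name the genotype after Cre. Cells of both genotypes received 100 ng/ml lipopolysaccharide (LPS), a bacterial ligand of Toll-like receptor 4, for 0, 1 or 18 h. Each of the 6 groups held 3 lists, except WT at 1 h, which held 2 because the labels join replicates 1 and 2. The labels do not tie replicates to separate mice, so p-values measure the spread between these libraries, which may be technical.

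PU.1, the product of Spi1, is an ETS factor that opens macrophage enhancers, and RUNX1 acts with it and at its gene early in blood development. CSF1R is the receptor for M-CSF and IL-34, and CSF2RA is the ligand-specific subunit of the GM-CSF receptor. c-MAF, MEF2C and ZEB2 are transcription factors of mature and tissue-resident macrophages, and ID3 is an inhibitor that binds E proteins and keeps them from DNA. LPS is known to redirect macrophage transcription factors to new enhancers within the first hours.

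A peak list holds no read counts, so elements were compared by rank. Peaks were ordered inside each list by their deposited −log10 p, and the best 24389 of each list, the length of the shortest, were kept. The rank score of an element in a list is log2(24390/rank), so that 1 unit is a halving of the rank number, and it is 0 beyond rank 24389 or with no peak. Of peaks tied at the last kept place a random draw decided which were kept, so 5 of the 833 values of the elements are scores above 0, of at most 0.07, in lists where the element is not counted as having a peak, and 2 are scores of 0 where it is. A score is thus a standing within a library and not an amount of accessibility, and a difference against a group at 0 is a lower bound. The deposited −log10 p takes few values, 60 to 817 among the kept peaks of a list, so ranks are averages over ties of up to 3402 peaks. Rank 2529 in KO 18 h replicate 1, for example, is the middle of a tie of 231 peaks and rank 2609 in WT 1 h replicate 1-2 of a tie of 394. In a second analysis, chosen after the data had been seen, every summit was ranked on its own in a 500 bp window, the best 26558 of each list were kept and the window's score was log2(26559/rank). Differences were tested over all 34195 sites with limma, with Benjamini-Hochberg adjustment, and called at an adjusted p under 0.05. The comparisons at 1 h and at 18 h share their 0 h lists.

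The lists differed in depth, from 0.382 to 9.75 background reads per kb as recovered from the deposited columns. WT 0 h and WT 18 h were the deepest groups at 4.62 to 9.75, WT 1 h held 0.382 and 1.61, and KO 18 h held 1.10 to 1.76. The list of KO 18 h replicate 1 stood apart, with a median peak width of 135 bp against 338 to 661 bp in the others. Promoters of 6 to 9 of 10 macrophage markers carried a peak in each list and Mrc1 in none, while among 6 T cell markers only Cd3d, among 6 B cell markers only Ms4a1 and among 6 neutrophil markers only Camp ever did. The Csf1r promoter was counted in 2 of 6 lists at 0 h and in 10 of 11 after LPS. The 500 bp window at its start site had a peak in all 17 lists, so the marker count depends on the rule of counting. Ms4a1 and Camp had a peak in 0 of 6 lists at 0 h and in 10 of 11 lists after LPS each, while the other 5 markers of either type had none in any list, and their part in the LPS results was not tested. Of the 4 dendritic cell, 4 erythroid and 4 fibroblast markers, at most 1, 1 and 2 had a peak in any list. At the targeted gene itself, the site 8438 bp into Nr4a1 had a peak in 8 of 8 WT and 8 of 9 KO lists and a lower score in KO (difference −1.20 ± 0.18 SE, adjusted p = 0.0033 by limma). Which part of Nr4a1 was deleted is not given in the sources used here, so this site does not check the labels.

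The DNA around the summits of 10 elements that the results turn on is given here, from the forward strand of GRCm38. They are 3 called elements of Zeb2 and 3 of Runx1, the Mef2c start-site element that left the lists, Spi1 element 2 and Csf2ra element 2, which had opposite early and late differences, and Csf2ra element 1, which was lower at both times. Elements are numbered along each gene from its 5′ side. Capitals mark matches, on either strand, to the motifs searched: PU.1 (GAGGAAGT), ETS core (AGGAAGT, held by every PU.1 match), RUNX (TGTGGTT), AP-1 (TGACTCA or TGAGTCA), C/EBP (TTACNNAA or TTGCNNAA), MAF half-site (TGCTGAC), ZEB E-box (CACCTG), interferon-response core (GAAANNGAA), the Nur77 element NBRE (AAAGGTCA), and NF-kB, MEF2 and CTCF by name.
Zeb2 element 4 (chr2:45089587-45089787, higher at 1 h, RUNX and interferon-response core): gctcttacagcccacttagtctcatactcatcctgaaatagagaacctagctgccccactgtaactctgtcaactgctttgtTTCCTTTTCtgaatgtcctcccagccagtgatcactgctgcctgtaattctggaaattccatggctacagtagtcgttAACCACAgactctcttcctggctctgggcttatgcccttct
Zeb2 element 5 (chr2:45085667-45085867, higher at 1 h and 18 h, ZEB E-box): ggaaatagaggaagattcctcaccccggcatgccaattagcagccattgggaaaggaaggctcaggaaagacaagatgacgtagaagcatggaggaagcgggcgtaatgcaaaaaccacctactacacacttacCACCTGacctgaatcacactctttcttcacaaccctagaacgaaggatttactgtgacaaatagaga
Zeb2 element 6 (chr2:45049457-45049657, in every list, ZEB E-box and AP-1): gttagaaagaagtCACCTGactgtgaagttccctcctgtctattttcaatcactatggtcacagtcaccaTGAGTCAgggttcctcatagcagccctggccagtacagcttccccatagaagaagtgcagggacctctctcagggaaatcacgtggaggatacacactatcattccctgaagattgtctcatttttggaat
Runx1 element 2 (chr16:92801032-92801232, lower with LPS, no match): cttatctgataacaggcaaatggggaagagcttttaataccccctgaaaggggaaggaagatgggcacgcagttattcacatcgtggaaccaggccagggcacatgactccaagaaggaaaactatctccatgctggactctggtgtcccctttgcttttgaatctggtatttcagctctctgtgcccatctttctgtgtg
Runx1 element 8 (chr16:92620805-92621005, higher at 1 h, C/EBP and 2 AP-1): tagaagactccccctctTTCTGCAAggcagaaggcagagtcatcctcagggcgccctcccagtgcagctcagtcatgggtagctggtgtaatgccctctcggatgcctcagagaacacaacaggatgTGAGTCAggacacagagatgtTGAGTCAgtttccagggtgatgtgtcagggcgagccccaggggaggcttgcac
Runx1 element 10 (chr16:92612618-92612813, higher at 18 h, C/EBP): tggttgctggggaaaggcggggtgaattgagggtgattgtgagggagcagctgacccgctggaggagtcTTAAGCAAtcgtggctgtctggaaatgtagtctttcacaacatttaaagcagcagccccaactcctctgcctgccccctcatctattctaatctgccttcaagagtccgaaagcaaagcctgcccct
Mef2c element 2 (chr13:83572094-83572294, lower with LPS, ETS core, MAF half-site and C/EBP): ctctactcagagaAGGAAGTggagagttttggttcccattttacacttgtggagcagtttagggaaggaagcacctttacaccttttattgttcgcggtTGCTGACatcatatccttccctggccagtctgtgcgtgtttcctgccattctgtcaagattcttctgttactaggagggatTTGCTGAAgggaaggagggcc
Spi1 element 2 (chr2:91084521-91084721, lower at 1 h and higher at 18 h, no match): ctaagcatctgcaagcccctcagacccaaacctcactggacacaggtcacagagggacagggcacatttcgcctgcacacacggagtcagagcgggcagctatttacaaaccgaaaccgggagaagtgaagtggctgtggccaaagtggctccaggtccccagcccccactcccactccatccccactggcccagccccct
Csf2ra element 2 (chr19:61227377-61227488, lower at 1 h and higher at 18 h, no match): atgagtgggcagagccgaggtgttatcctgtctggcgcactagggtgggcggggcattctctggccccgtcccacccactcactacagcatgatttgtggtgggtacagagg
Csf2ra element 1 (chr19:61244795-61244995, lower with LPS, interferon-response core and PU.1): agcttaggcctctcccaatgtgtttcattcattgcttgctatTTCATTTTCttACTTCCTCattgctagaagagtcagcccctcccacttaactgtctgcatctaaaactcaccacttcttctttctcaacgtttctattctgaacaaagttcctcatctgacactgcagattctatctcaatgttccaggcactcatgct

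Within 100 bp of the summit, 4 of 49 elements (8.16%) held PU.1 against 7.72% of all sites, 9 (18.4%) AP-1 against 16.2%, 7 (14.3%) C/EBP against 16.95%, 4 (8.16%) RUNX against 6.50%, 4 (8.16%) the interferon-response core against 7.72% and 4 (8.16%) the MAF half-site against 6.04%. ETS core was held by 6 elements (12.2%) against 17.5%, the ZEB E-box by 3 (6.12%) against 6.58%, NF-kB by 1 (2.04%) against 7.44% and the NBRE by 1 (2.04%, Csf1r element 6) against 1.04%. AP-1 matches fell in 3 of the 8 elements higher at 1 h, 1 of the 10 lower and 4 of the 14 constant ones. For C/EBP these counts were 3, 1 and 2, for the interferon-response core 2, 1 and 0, and for the ZEB E-box 2, 0 and 1. The shares over all sites split by call were not computed. No element matched MEF2 or CTCF, which stood at 1.74% and 2.79% of all sites. The median GC content of these stretches was 51.7% at the elements and at all sites alike, with a range of 35.8% to 66.2% over the elements.

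Most of these elements were distal. A summit lay in an intron for 32 of the 49 and between genes for 14, and 11 elements reached within 1 kb of an annotated coding start site of their own gene. Widths ran from 312 to 11817 bp with a median of 1280 bp, and 4 of the 5 elements over 5000 bp merged several summits. A peak was present in all 17 lists at 14 elements (28.6%), which are called constant here, against 30.4% of all sites. Of the other elements, 15 were in 9 to 16 lists and 20 in 2 to 8. Constant elements were found at Spi1 (3), Runx1 (3), Zeb2 (3), Csf1r (2), Id3 (2) and Csf2ra (1), and at neither Maf nor Mef2c. Maf element 2 fell short only by the random draw, since its peak in the remaining list, KO 18 h replicate 1, was tied at the last kept place.

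**Figure D1:**
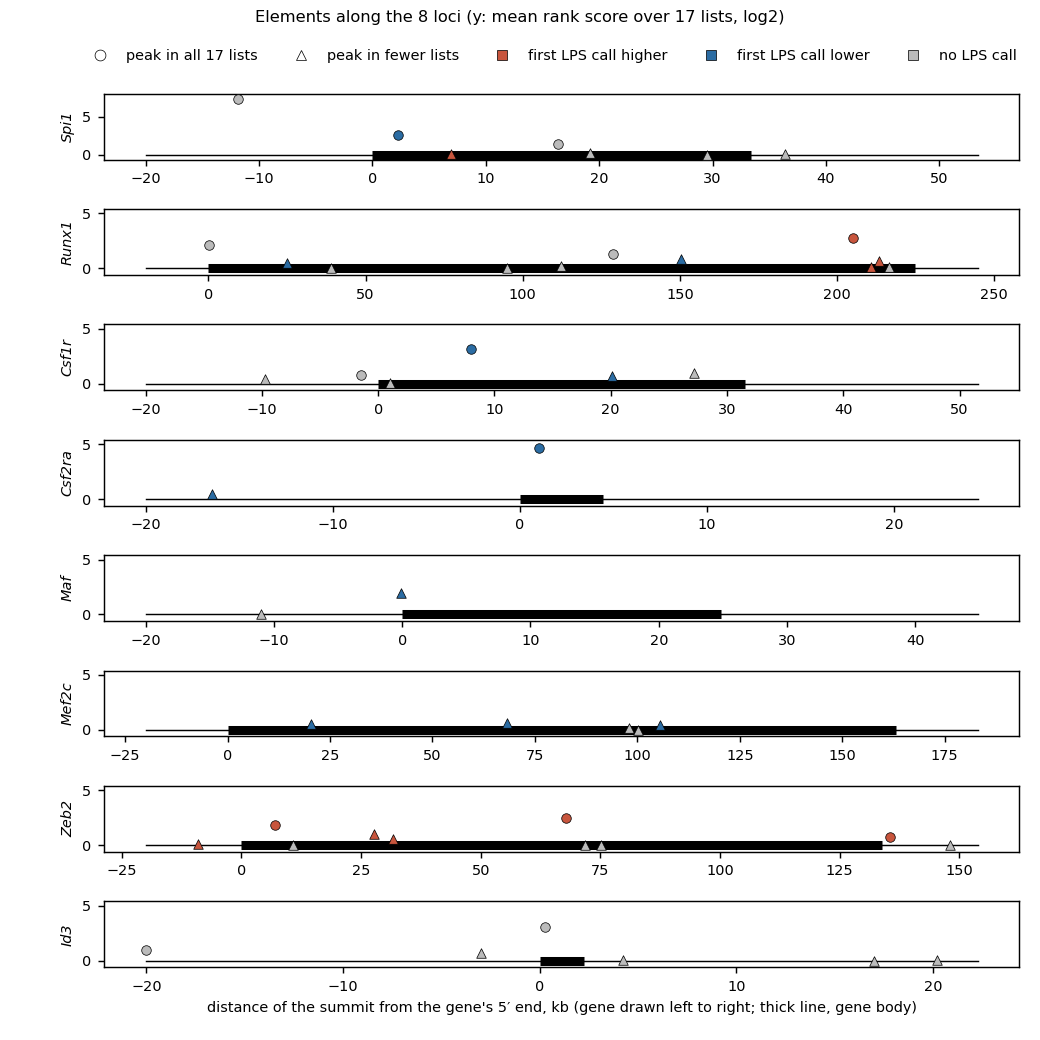
Positions of the 49 elements along the 8 genes. The x axis is the distance of the summit from the gene's 5′ end in kb, the y axis the mean rank score over the 17 lists (log2), circles have a peak in all 17 lists and triangles in fewer, and colour gives the direction of the first LPS call (1 h, or 18 h if 1 h was not called). Red symbols cluster at Zeb2 and blue ones at Mef2c and Csf1r, and Id3 has grey symbols only.

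LPS changed the rank of 21 of the 49 elements at 1 h or 18 h (42.9%), close to the 41.1% of all sites. At 1 h, 8 elements were higher (16.3%; 13.8% of all sites) and 10 lower (20.4%; 14.3% of all sites). At 18 h, 6 were higher (12.2%; 10.8% of all sites) and 8 lower (16.3%; 12.8% of all sites). The median difference over the 49 elements was 0.00 at both times, beside −0.02 at 1 h and 0.00 at 18 h over all sites. Peaks at a single time were found at 6 of the 49 elements, which therefore passed the filter of 2 lists through that time alone. Their differences are a description with no test, although 2 of them, Zeb2 element 1 and Spi1 element 3, are among these counts. Over the other 43 elements, 7 were higher (16.3%; 12.8% of such sites) and 10 lower (23.3%; 15.7% of such sites) at 1 h, and 5 higher (11.6%; 10.5% of such sites) and 8 lower (18.6%; 13.9% of such sites) at 18 h. Directions differed between genes: all 6 calls at Zeb2 at 1 h, Zeb2 element 1 included, were higher, and all 3 at Mef2c, both at Csf1r, both at Csf2ra and the single calls at Maf and Spi1 were lower, while Runx1 had 2 higher and 1 lower. Of the 14 constant elements, 7 were called. Depth moved with the groups, as given above, and with depth as a covariate 5 elements were higher and 7 lower at 1 h and 5 higher and 8 lower at 18 h. Of 13 elements within 1 kb of any coding start site, 1 was higher and 6 lower at 1 h (5.84% and 17.7% of such sites), and of the 36 distal ones 7 were higher and 4 lower (17.6% and 12.7%).

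The genotype comparison asks whether loss of Nur77 altered these loci. KO differed from WT at 0 of 49 elements by limma (0.395% of all sites), the 1 h response differed between genotypes at 0 (0.0965% of all sites) and the 18 h response at 0 (0.00585% of all sites). At an unadjusted p under 0.05 there were 8, 2 and 3 of 49, beside 9.43%, 6.92% and 6.35% of all sites.

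**Figure D2:**
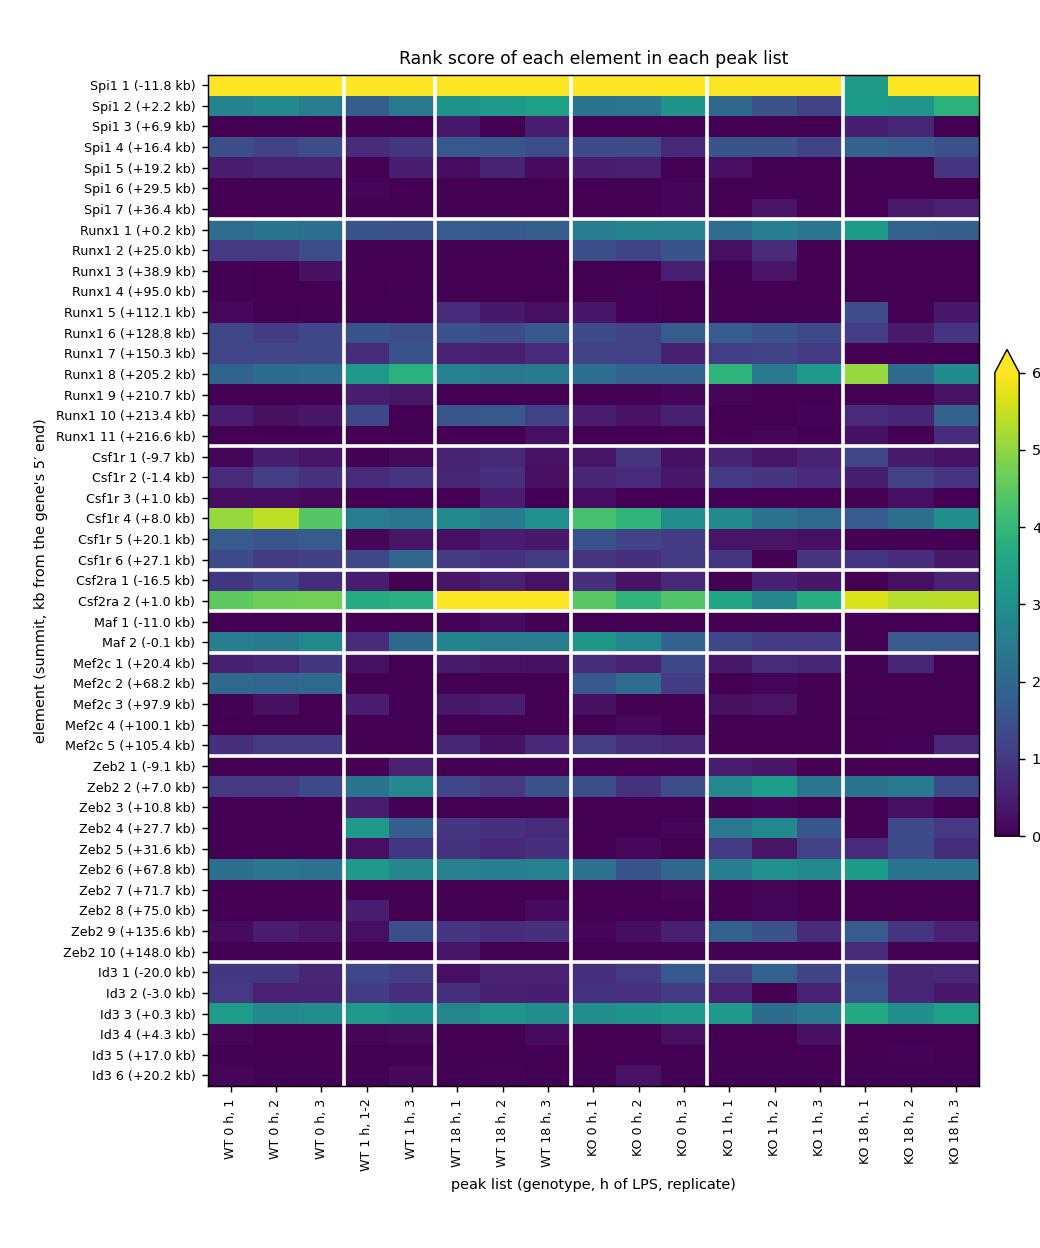
Rank score of each of the 49 elements (rows, with the distance of the summit from the gene's 5′ end in kb) in each of the 17 lists (columns, by genotype, h of LPS and replicate). Colour is the rank score on a log2 scale, with 0 beyond rank 24389 or with no peak and values above 6 in the last colour; Csf2ra element 2 is brighter at 18 h than at 0 h, and Mef2c element 2 and Runx1 element 2 are dark after 0 h.

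ZEB2 is a transcriptional repressor known to keep tissue macrophages in their identity. At Zeb2 (ENSMUSG00000026872.17, chr2:44983632-45117395, reverse strand), 6 of 10 elements were higher at 1 h and none lower, or 5 without Zeb2 element 1, which was seen at 1 h alone. Zeb2 element 4 (chr2:45088043-45092020, 20557 bp downstream of the nearest coding start site, in an intron) ranked 32200, 33131 and 28521 in WT at 0 h and 29099, 26882 and 22922 in KO at 0 h. At 1 h it ranked 2609 and 7044 in WT and 4721, 3321 and 7958 in KO. All 5 lists at 1 h were above all 6 at 0 h, and 1 of the 6 lists at 0 h had it within the best 24389. At 18 h it ranked 12719, 13779 and 14597 in WT and 28007, 9785 and 12164 in KO, between the other times, with the low value in the list of narrow peaks. The rank score rose by at least 2.38 ± 0.28 (SE) at 1 h (adjusted p = 6.7e-06 by limma; exact permutation p = 0.005, the smallest it can give). The difference was 2.51 in WT and 2.26 in KO. At 18 h the difference was 0.79 ± 0.26 (adjusted p = 0.037 by limma), a call that was lost, at differences of 0.65 to 0.81, without any single WT 0 h, WT 18 h or KO 0 h list or KO 18 h replicate 2 or 3. It was lost under 17 of 29 alternatives in all, among them the 500 bp window around its summit (0.70).

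Zeb2 element 5, the next intronic element (chr2:45085295-45087066), ranked 36834 to 39353 in WT and 22197 to 26817 in KO at 0 h. It ranked 20457 and 12373 in WT and 11552, 19586 and 10897 in KO at 1 h. At 18 h it ranked 13333, 15426 and 13754 in WT and 14937, 9785 and 14185 in KO. No list at either time overlapped those at 0 h. The differences were 0.71 ± 0.18 at 1 h and 0.84 ± 0.17 at 18 h (adjusted p = 0.0061 and 0.0014 by limma; exact permutation p = 0.005 for both).

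The Zeb2 element at the gene's 5′ end, element 2 (chr2:45107231-45117824), was constant and spanned 10594 bp. Its rank was 9510 to 12307 in WT and 8926 to 13392 in KO at 0 h, 4926 and 3429 in WT and 3463, 2417 and 4744 in KO at 1 h, and 4501 to 12155 at 18 h. The lists at 1 h were all above those at 0 h (difference 1.52 ± 0.25, adjusted p = 0.00022 by limma), and the 18 h difference of 0.46 ± 0.24 was not called (adjusted p = 0.18 by limma). The summit that carried the rise lies 65 bp downstream of an internal coding start site, in a coding exon. In the analysis of single summits, the 500 bp window of that summit rose by 1.56 ± 0.26 while the window at the gene's own 5′ end, 6 bp upstream of the start site, fell by at least 0.71 ± 0.13 at 1 h (adjusted p = 0.00069 by limma) and by at least 0.62 ± 0.12 at 18 h (adjusted p = 0.0016). The 5′ window ranked 13576 to 19055 in WT and 12510 to 19355 in KO at 0 h, and 25354 and 35546 in WT at 1 h.

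The other constant Zeb2 elements, 6 and 9, were also higher at 1 h. Zeb2 element 6 (chr2:45048312-45051346, intronic), the best-ranked distal element of the gene, stood between 4781 and 8301 at 0 h and between 2609 and 4103 at 1 h, with no overlap (difference 0.81 ± 0.24, adjusted p = 0.017 by limma; not called without WT 1 h replicate 1-2, at 0.69, or with depth as a covariate, at 0.75). Zeb2 element 9, downstream of the gene, differed by 0.81 (adjusted p = 0.023 by limma), with lists that overlapped those at 0 h. Zeb2 element 1, upstream, was among the best 24389 in 3 of 5 lists at 1 h and in no other. The other 4 Zeb2 elements, in 2 to 4 lists each, had no call.

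**Figure D3:**
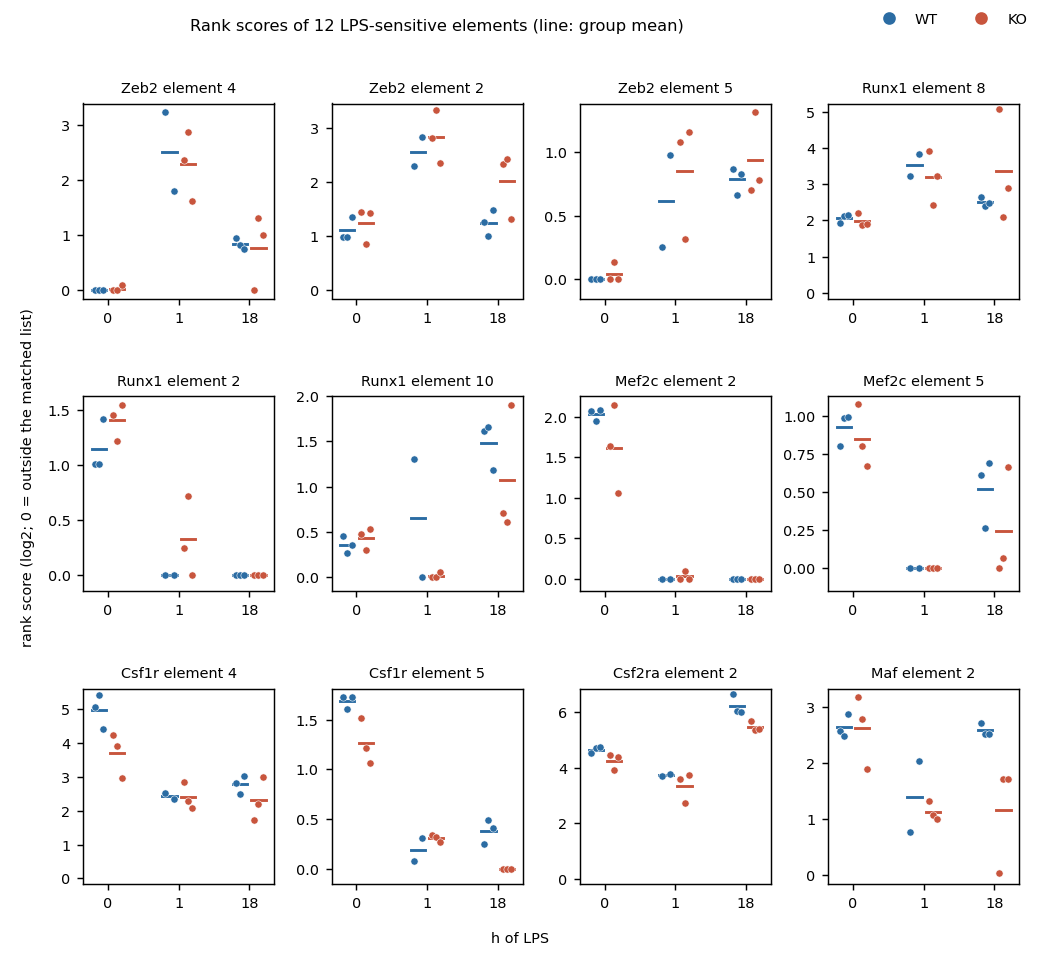
Rank scores (y axis, log2, a panel per element with its own scale) of 12 LPS-sensitive elements at 0, 1 and 18 h of LPS (x axis). Each point is a list, WT in blue and KO in red, and lines are group means; Zeb2 element 4 goes from about 0 to means of 2.51 and 2.29 at 1 h, Mef2c element 2 falls to near 0, and Csf2ra element 2 dips at 1 h and peaks at 18 h in both genotypes.

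MEF2C is a MADS-box factor of myeloid and lymphoid progenitors and of microglia. At Mef2c (ENSMUSG00000005583.16, chr13:83504034-83667080, forward strand), 3 of 5 elements were lower at 1 h and at 18 h and none higher. Mef2c element 2 (chr13:83571668-83572759) has its summit 154 bp upstream of an internal coding start site. It ranked 5790, 6330 and 5764 in WT and 7791, 5494 and 11660 in KO at 0 h. At 1 h it had no peak at all in WT replicate 1-2 and ranked 28940 in WT replicate 3, and 25047, 22863 and 33714 in KO. At 18 h it ranked 26125 and 38492 or was absent in WT, and was absent, absent and at 29265 in KO. The 0 h lists did not overlap the others, and all 6 of the 0 h lists and none of the 18 h lists had a peak among the best 24389, a state shared by Runx1 element 2 and by 1.97% of all sites. The rank score fell by at least 1.81 ± 0.16 at 1 h and by at least 1.83 ± 0.15 at 18 h (adjusted p = 3.6e-07 and 6.4e-07 by limma; exact permutation p = 0.005 for both). The 1 h difference was −2.03 in WT and −1.59 in KO.

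Mef2c element 5 (chr13:83608910-83610068, intronic) was the single element with a peak in all 0 h lists and none of the 1 h lists (1.92% of all sites). It ranked 12265 to 13941 in WT and 11547 to 15292 in KO at 0 h, was absent or at 33531 in WT at 1 h, and stood at 25717, 26729 and 33714 in KO at 1 h. By 18 h it was back at 15954, 20324 and 15062 in WT, and in KO it was absent, at 23273 (tied at the last kept place and not drawn) and at 15381. The differences were −0.89 ± 0.14 and −0.51 ± 0.13 (adjusted p = 0.00015 and 0.010 by limma). Mef2c element 1, at another start site, differed by −0.44 ± 0.16 and −0.53 ± 0.15 (adjusted p = 0.048 and 0.016 by limma) with overlapping lists. Its 1 h call was lost without any single WT list, without KO 0 h replicate 1 or 3 and without KO 1 h replicate 1 or 3 (−0.34 to −0.51), and its 18 h call without WT 0 h replicate 3 (−0.47). No element with a peak in all lists at 1 h, or in all at 18 h, and in none at 0 h occurred among the 49 elements (2.73% and 1.78% of all sites).

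The receptor genes had their strongest calls in opposite directions at 18 h. At Csf1r (ENSMUSG00000024621.16, chr18:61100598-61132149, forward strand) the strongest element was element 4 (chr18:61105034-61110026), whose summit lies 2765 bp downstream of a start site in the intron known to hold the Fms-intronic regulatory element (FIRE), a macrophage enhancer. It ranked 728, 565 and 1149 in WT and 1283, 1611 and 3088 in KO at 0 h. After 1 h it ranked 4204 and 4763 in WT and 3403, 5022 and 5813 in KO, below every 0 h list. At 18 h it ranked 3415, 4346 and 2961 in WT and 7299, 5269 and 3066 in KO. The score fell by 1.92 ± 0.31 at 1 h and by 1.79 ± 0.30 at 18 h (adjusted p = 0.00020 and 0.00029 by limma). A fall was seen in both genotypes, by 2.52 in WT and by 1.32 in KO at 1 h, and the difference between these was not called (adjusted p = 0.76 by limma).

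Csf1r element 5, also intronic (chr18:61112482-61123613), went the same way. It ranked 7371 to 8043 in WT and 8515 to 11660 in KO at 0 h, 19322 to 23185 in all lists at 1 h, and 17413 to 20491 in WT at 18 h, and lay outside the best 24389 in every KO list at 18 h. The differences were −1.23 ± 0.13 and −1.28 ± 0.12 (adjusted p = 1.9e-06 and 1.5e-06 by limma). The start site of Csf1r departed from this in WT at 1 h alone: the 500 bp window with its summit 84 bp upstream ranked 13373 to 15207 in WT and 9417 to 13019 in KO at 0 h, and 6661 and 14402 in WT but 19029 to 23145 in KO at 1 h. The rank of 6661 came from WT 1 h replicate 1-2, the shallowest list, and 14402 lay within the WT range at 0 h. The difference at 1 h was −0.20 ± 0.19 (adjusted p = 0.50 by limma), and the KO response minus the WT response was −1.48 (unadjusted p = 0.0013, adjusted p = 0.19 by limma). At 18 h the window fell by 0.60 ± 0.18 (adjusted p = 0.026 by limma). Csf1r elements 1, 2, 3 and 6 were not called at either time, with differences of −0.21 to 0.19. Element 6 merges summits that differed, however. The window at its end in the neighbour Hmgxb3 (chr18:61131930-61132429) had a peak in all 6 lists at 0 h, in none at 1 h and in all 6 at 18 h, and it fell by at least 0.95 ± 0.14 at 1 h (adjusted p = 0.00012 by limma). The window at its best summit, 21891 bp downstream of the start site, fell by 0.63 ± 0.19 at 18 h (adjusted p = 0.022 by limma), and another window in Hmgxb3 had a peak in 4 of 6 lists at 0 h and in no other.

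**Figure D4:**
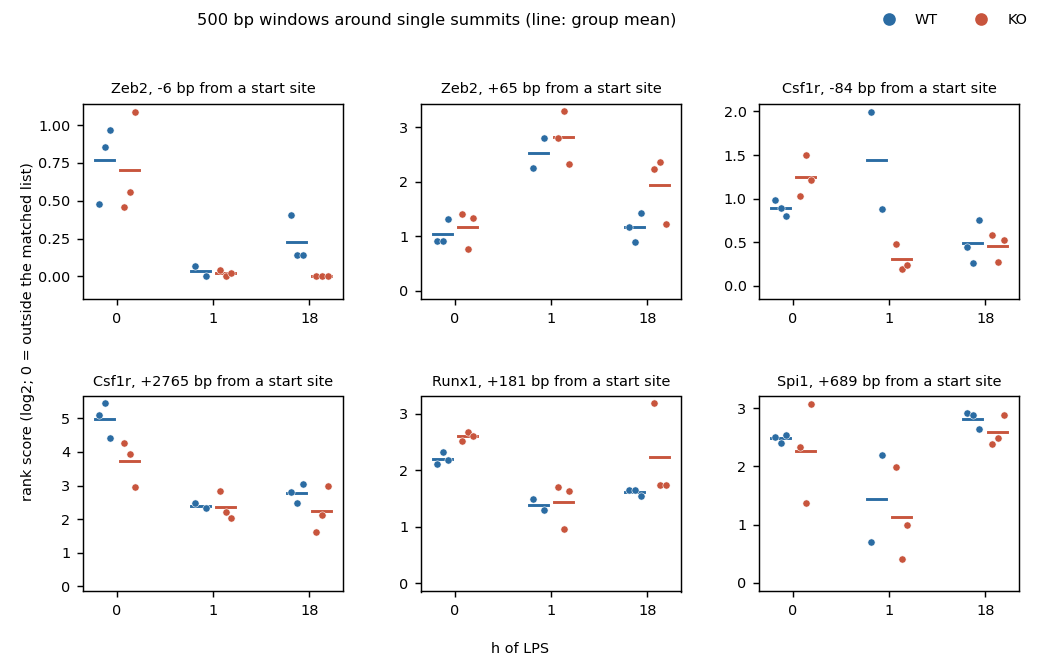
Rank scores (y axis, log2, each panel with its own scale) of 6 windows of 500 bp around single summits at 0, 1 and 18 h of LPS (x axis); each point is a list, WT in blue and KO in red, and lines are group means. The 2 Zeb2 windows move in opposite directions at 1 h, and at Csf1r the window 2765 bp downstream falls in both genotypes.

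At 18 h, 1 of the 2 elements of Csf2ra (ENSMUSG00000059326.7, chr19:61223957-61228429, reverse strand) was higher and the other lower. Its start-site element 2 (chr19:61224622-61229166, constant) ranked 1061, 949 and 920 in WT and 1103, 1611 and 1183 in KO at 0 h. At 1 h it ranked 1895 and 1778 in WT and 2036, 3683 and 1815 in KO, below all 0 h lists. At 18 h it ranked 246, 371 and 387 in WT and 483, 607 and 590 in KO, above all 0 h lists. The score fell by 0.91 ± 0.30 at 1 h and rose by 1.39 ± 0.28 at 18 h (adjusted p = 0.030 and 0.0016 by limma; exact permutation p = 0.005 for both). With depth as a covariate the early fall was −0.65 and no longer called, and it was also not called without any single WT 0 h or WT 1 h list, KO 0 h replicate 1 or KO 1 h replicate 2 (−0.75 to −0.94). The mean score of KO minus that of WT was −0.39, −0.38 and −0.77 at 0, 1 and 18 h, a difference that was not called (adjusted p = 0.52 by limma). Csf2ra element 1, 16477 bp upstream, fell by 0.52 ± 0.16 at 1 h and by 0.46 ± 0.15 at 18 h (adjusted p = 0.019 and 0.033 by limma) with overlapping lists. Its 1 h call was lost without WT 1 h replicate 3 or KO 1 h replicate 1 (−0.40 and −0.45), and its 18 h call without WT 0 h replicate 1 or 2, WT 18 h replicate 1 or 3, KO 0 h replicate 1 or 3 or KO 18 h replicate 1 (−0.39 to −0.46).

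PU.1 and RUNX1 stand at the head of the lineage, and the merged elements over their start sites had a peak in every list, although the 500 bp window at the Spi1 start site itself, 51 bp into the gene, had one in 3 of 17 lists. The best-ranked element in the window of Spi1 (ENSMUSG00000002111.8, chr2:91082390-91115756, forward strand), element 1, had its summit 156 bp from the start site of the neighbour Slc39a13 and ranked 51 to 328 in 16 lists and shared rank 2529 in the list of narrow peaks, with no call. Spi1 element 2 (chr2:91080100-91088703), which covers the Spi1 start site, ranked 3310 to 4172 in WT and 2849 to 4843 in KO at 0 h. It ranked 6959 and 4572 in WT and 5956, 8384 and 10897 in KO at 1 h, and 2309 to 2838 in WT and 1684 to 2803 in KO at 18 h, above all 0 h lists. The score fell by 0.80 ± 0.25 at 1 h and rose by 0.68 ± 0.24 at 18 h (adjusted p = 0.024 and 0.044 by limma). The 1 h call was lost with depth as a covariate (−0.77) and without WT 0 h replicate 2, WT 1 h replicate 1-2, KO 0 h replicate 3 or KO 1 h replicate 3 (−0.65 to −0.75), and the 18 h call with depth (0.69) and without any single WT 0 h or WT 18 h list, KO 0 h replicate 1 or 2 or KO 18 h replicate 3 (0.57 to 0.73). The window 689 bp into the gene fell by 1.09 ± 0.35 at 1 h (adjusted p = 0.029 by limma). A minor intronic element, Spi1 element 3, was among the best 24389 in 4 of 6 lists at 18 h and in no other.

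Runx1 (ENSMUSG00000022952.17, chr16:92601466-92826149, reverse strand) spans 224.7 kb and had calls in both directions. Runx1 element 2 (chr16:92800413-92802460) lies in the first intron, which is known to carry a haematopoietic stem cell enhancer. It ranked 12142, 12155 and 9160 in WT and 8926, 10484 and 8355 in KO at 0 h. At 1 h it was absent or at 25282 in WT and at 20622, 14877 and 33714 in KO, and at 18 h it ranked 25931 to 31974 in all 6 lists. Its score fell by at least 1.11 ± 0.14 and 1.27 ± 0.13 (adjusted p = 1.4e-05 and 3.9e-06 by limma), with no overlap with 0 h at either time. At the other end of the gene, Runx1 element 8 (chr16:92620355-92622111, with 2 AP-1 matches) was constant and ranked 5321 to 6647 at 0 h, 2609 and 1707 in WT and 1620, 4525 and 2618 in KO at 1 h, again without overlap (difference 1.33 ± 0.41, adjusted p = 0.022 by limma). That call was lost without WT 1 h replicate 3 or KO 1 h replicate 1 (1.18 and 1.15).

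Late differences at Runx1 were found at elements 7 and 10. Runx1 element 10 (chr16:92612134-92613297) ranked 16815 to 20214 in the 6 lists at 0 h and 6512 to 15965 in the 6 at 18 h (difference 0.88 ± 0.23, adjusted p = 0.0088 by limma), and at 1 h it was at 9850 and 36036 in WT and 23449 to 30773 in KO. Runx1 element 7 (chr16:92674565-92676997) ranked 9856 to 16815 at 0 h, 14597 to 17007 in WT at 18 h and outside the best 24389 in all KO lists at 18 h (difference −0.83 ± 0.16, adjusted p = 0.0011 by limma). Runx1 element 9, seen in 6 lists, differed by 0.22 ± 0.06 at 1 h (adjusted p = 0.0071 by limma), a call lost under 5 of 28 alternatives, among them depth as a covariate (0.22). Its difference was 0.43 in WT and 0.0050 in KO, and the KO response minus the WT response of −0.43 was not called (unadjusted p = 0.0013, adjusted p = 0.21 by limma). The start-site element of Runx1, element 1 (chr16:92823167-92827166, constant), was not called with LPS (differences −0.48 and −0.40), but its calls appeared at both times without KO 18 h replicate 1 (−0.48 and −0.64), and the 500 bp window at its start site fell by 1.00 ± 0.26 at 1 h (adjusted p = 0.0096 by limma).

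Runx1 element 1 also had the largest excess of KO over WT among the 49 elements. It ranked 5557, 4843 and 5310 in WT and 4241, 3794 and 3890 in KO at 0 h, 8263 and 8666 in WT and 5545, 4085 and 4744 in KO at 1 h, and 7405, 7474 and 6974 in WT and 2529, 6804 and 6962 in KO at 18 h. KO lists were above WT lists within each time, but at 18 h barely so. The nearest ranks there, 6974 in WT and 6962 in KO, are averages over ties in lists of 269 and 126 distinct values. The KO rank of 2529 came from the list of narrow peaks. The difference of 0.60 ± 0.20 had an exact permutation p of 0.00025, the smallest it can give, but an adjusted p of 0.29 by limma over all sites. In the 500 bp window at the start site the difference was 0.35 ± 0.21 (adjusted p = 0.62 by limma). The lowest adjusted p for genotype over the 49 elements, 0.21, was that of Csf1r element 6 (−0.53 ± 0.16).

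c-MAF is known to restrain self-renewal of macrophages, and the Maf locus (ENSMUSG00000055435.6, chr8:115682942-115707794, reverse strand) held 2 elements. Maf element 2 (chr8:115705324-115708763), 118 bp upstream of the start site, ranked 4123, 4360 and 3320 in WT and 2718, 3540 and 6560 in KO at 0 h. At 1 h it ranked 14418 and 5956 in WT and 9820, 11685 and 12233 in KO. At 18 h it was back at 3710, 4265 and 4273 in WT, but stood at 23855, 7450 and 7443 in KO, the first of these in the list of narrow peaks. The score fell by 1.37 ± 0.33 at 1 h (adjusted p = 0.0045 by limma), or by 0.85 with depth as a covariate, where it was not called. The 18 h difference was −0.06 in WT and −1.46 in KO, and neither their difference (adjusted p = 0.77 by limma) nor their mean (−0.76, adjusted p = 0.084) was called. The mean was called without KO 0 h replicate 3, KO 18 h replicate 2 or KO 18 h replicate 3 (−0.90 to −0.94). Maf element 1, upstream, was among the best 24389 in 2 lists, both WT at 18 h.

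At Id3 (ENSMUSG00000007872.3, chr4:136143497-136145755, forward strand) no element was called. The start-site element 3 (chr4:136142169-136145194, constant) ranked 2498 to 3461 in WT and 2623 to 3123 in KO at 0 h, 2609 and 3012 in WT and 2553 to 5574 in KO at 1 h, and 2768 to 3595 in WT and 1918 to 3038 in KO at 18 h. The 3 times overlapped, with differences of −0.19 ± 0.25 at 1 h and 0.10 ± 0.24 at 18 h (adjusted p = 0.63 and 0.84 by limma). Id3 element 1, the best-ranked distal element (chr4:136122895-136124174), was constant as well, with differences of 0.31 ± 0.21 and −0.33 ± 0.19. The remaining 4 Id3 elements differed by −0.17 to 0.04 at 1 h.

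**Figure D5:**
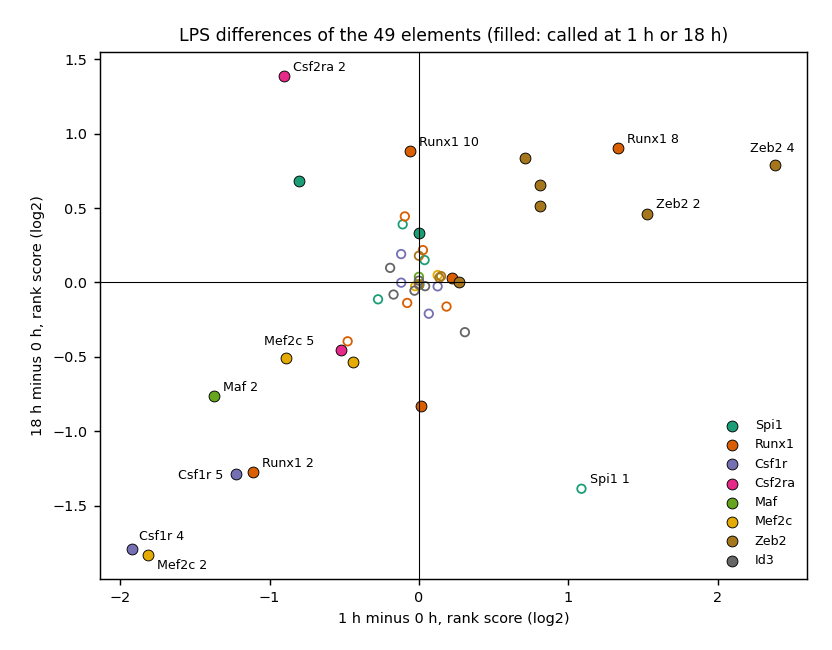
Differences in rank score from 0 h at 1 h (x axis) and 18 h (y axis), log2, for the 49 elements, coloured by gene and filled where called at either time. Among the filled points, Zeb2 elements lie to the right, Mef2c and Csf1r elements to the lower left and Csf2ra element 2 to the upper left; both axes share the 0 h lists.

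The comparisons at 1 h and 18 h share their 0 h lists, so their calls are not independent. Of the 21 called elements, 11 were called at both times (22.4% of the 49; 10.6% of all sites), 7 at 1 h only and 3 at 18 h only. Of the 11, 7 were lower at both times, 2 higher at both (Zeb2 elements 4 and 5), and 2 lower and then higher (Spi1 element 2 and Csf2ra element 2).

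The same windows were taken around 38 other lineage genes. They held 151 elements at 35 of the genes, each counted once where windows overlapped, of which 52 were constant. Some of the 151 had peaks at a single time and passed the filter of 2 lists through that time alone. Among them are elements of Ikzf1 (chr11:11748740-11749560) and Runx3 (chr4:135178812-135179648), seen at 18 h alone. Their differences are a description with no test. The counts below include such elements and were not repeated without them. At 1 h, 24 were higher (15.9%; 13.8% of all sites) and 31 lower (20.5%; 14.3% of all sites), and at 18 h, 20 were higher (13.2%; 10.8% of all sites) and 28 lower (18.5%; 12.8% of all sites). Of 88 elements at 21 myeloid transcription factors, 11 were higher (12.5%) and 27 lower (30.7%) at 1 h, and 9 were higher (10.2%) and 22 lower (25.0%) at 18 h. An element of Cebpa, the granulocyte and macrophage progenitor factor, fell by at least 1.58 ± 0.11 at 1 h (adjusted p = 3.6e-08 by limma). Of 12 elements at the growth factors, 5 were higher (41.7%) and 1 lower (8.33%) at 1 h. The Il34 element and a Csf2 element (chr11:54251390-54252134) among the 5, and the lower one, at Csf1, had peaks at a single time. A further element of Csf1, which encodes M-CSF, rose by 2.69 ± 0.26 at 1 h (adjusted p = 9.5e-07 by limma). Another Csf1 element (chr3:107777499-107778977) rose by 1.07 ± 0.17 at 1 h and fell by at least 1.06 ± 0.16 at 18 h (adjusted p = 0.00012 and 0.00011 by limma). At 18 h, 2 growth factor elements were higher and 2 lower (16.7% each). Among 28 elements of close relatives, 4 were higher (14.3%) and 2 lower (7.14%) at 1 h and 6 higher (21.4%) and 3 lower (10.7%) at 18 h, with an element of Zeb1, the paralogue of Zeb2, up by 2.16 ± 0.21 at 1 h (adjusted p = 8.0e-07 by limma). Among 23 elements of growth factor receptors, 4 were higher (17.4%) and 1 lower (4.35%) at 1 h and 3 higher (13%) and 1 lower (4.35%) at 18 h. Of the higher ones, the Flt3 element at 1 h had peaks at a single time. So did elements of Csf2rb (chr15:78355123-78356193) and Csf3r (chr4:126024122-126025571) at 18 h. Another element of Csf3r was up by at least 1.40 ± 0.17 at 1 h (adjusted p = 1.4e-05 by limma). Genotype had no call at any of the 151 (0.395% of all sites). The 5 elements given here with a difference were chosen after their values were seen.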

How the data were processed

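ATAC-seq of BMDMs gave 17 deposited peak lists. Per the labels and the study's methods, the authors trimmed reads with cutadapt 2.6, aligned them to mm10 and called peaks per sample with the snakeATAC pipeline. The entry names give mapping quality, mitochondrial and duplicate filters and a q threshold. The deposited columns are a score (10 times −log10 q), a fold ratio over background, −log10 p and −log10 q. DiffBind 3.0.15 counts were not used here.

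From these, intervals with several summits were reduced to the best one, ranked by −log10 p (ties averaged), cut to the best 24389 and merged with at least 1 bp of overlap into sites present in at least 2 lists. Rank scores were fitted with limma 3.58.1 (R 4.3.3, trend and robust) on 6 group means. The fit was tested on simulated data. Exact two-sided permutation tests exchanged lists within genotype (200 or 400 regroupings) or within time (4000). Depth, in background reads per kb, was recovered from the ratio and −log10 p columns. Cutting the lists to one length makes standings comparable but hides a global gain or loss, and wide merged elements take the rank of their best summit.

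Named elements were, at every gene, the best-ranked one within 1 kb of its start sites, the best-ranked one over 1 kb from any start site and up to 3 called in each direction and comparison. The genes, lists and rules were chosen with earlier results of these data known. Alternatives are given in the closing section. Sequences are from GRCm38.p6, with GENCODE vM21.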

Additional observations from a re-analysis of the deposited data

How the results depend on the processing

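The counts of called elements were recomputed under 12 other settings and without each list in turn. Of 18 elements called at 1 h and 14 at 18 h, keeping the 10000 best peaks left 10 and 6, and using all deposited peaks gave 28 at 1 h (8 higher and 20 lower). Constant elements numbered 7 and 22 under these choices, beside 14. Counting a peak only if it spanned 50% or more of the merged site, which wide elements seldom allow, gave 13 at 1 h (1 higher and 12 lower, against 8 and 10), 8 at 18 h and 0 constant elements. That setting also gave 2 genotype calls (Spi1 element 2 and Runx1 element 10) and 1 genotype call in the 18 h response (Runx1 element 10), where there were 0, and it turned the signs of Zeb2 element 2 at 1 h (−0.80), Zeb2 element 6 at 1 h (−0.69) and Spi1 element 2 at 18 h (−0.11). The normal score of the rank gave 1 genotype call (Runx1 element 7) and 2 in the 18 h response (Runx1 element 7 and Csf1r element 5). The causes of these changes in the genotype calls were not tested. With depth as a covariate 12 and 13 elements were called, and in 500 bp windows around single summits, chosen after the data had been seen, 27 and 20 of 74 windows, of which 8 were higher and 19 lower at 1 h (13.4% and 13.9% of all 38081 windows) and 5 higher and 15 lower at 18 h (9.37% and 12.7%). These counts include windows with peaks at a single time, which passed the filter through that time alone and are a description with no test. Among them are a Zeb2 window (chr2:45126204-45126703) higher at 1 h and a Spi1 window (chr2:91089028-91089527) higher at 18 h. Windows of Runx1 (chr16:92801521-92802020) and Csf1r (chr18:61132748-61133247), lower at both times, are others. Without 1 list, 13 to 20 elements were called at 1 h, 11 to 18 at 18 h, 0 to 1 for genotype, 0 to 3 in the 1 h response, 0 to 0 in the 18 h response and 14 to 16 were constant; the genotype call (Zeb2 element 8) and the 3 calls in the 1 h response (Runx1 element 9 and Zeb2 elements 3 and 8) came without WT 1 h replicate 3, which leaves a single list in that group, assumed to vary like the others. Of 30 called differences at named elements, 5 kept their call under every setting, and of their 858 values 746 kept the call, 109 lost it and 3 changed sign. Deviations from the group means correlated between lists of the same replicate number with r from −0.23 to 0.21, over 0.1 in 4 of 35 pairs. For lists of other numbers r ran from −0.28 to 0.40, over 0.1 in 10 of 85 pairs. The group means rest on 2 or 3 lists that differ in depth, so these values cannot show whether the numbers pair the samples. With the replicate number as a block 12 elements were called at 1 h and 15 at 18 h, beside 18 and 14 without it. From 0.107% to 13.95% of a kept list was tied at its last rank, where the peaks kept were drawn at random, and an element missing from a shallow list is not shown to be closed.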
